A study of Mus musculus with 6 samples.

Results

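The 41 genes described here mark tissues at the front of the mouse eye, and their RNA was measured in retina. They were chosen by symbol as known markers of lens, cornea and ciliary body, and all 41 were found in a table of 55450 genes, each symbol once. They were grouped into 12 lens crystallins, 4 crystallins set apart as also known outside the lens (Cryab, Crygs, Cryba2 and Crygn), 8 other lens genes, 13 genes of the cornea and surface epithelium and 4 genes of the ciliary body. Retinal RNA of C57BL/6 mice aged 8 weeks was sequenced in 3 libraries named Myrf-kd, from mice that carry 1 altered copy of Myrf (Myrf +/−), and in 3 wild-type (WT) libraries. Myrf encodes a membrane-anchored transcription factor. From the labels it is unclear how the gene was altered, whether animals were pooled and whether each library is a separate animal. P-values here reflect the variation among these 6 libraries, some of it possibly technical.

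The lens is a transparent tissue of fibre cells that fill with crystallins, lose their nuclei and are joined by membrane channels. Alpha-crystallins are small heat shock proteins that keep other proteins from aggregating, and beta- and gamma-crystallins are compact structural proteins. The cornea and conjunctiva are covered by a stratified epithelium built on keratins and desmosomes, and the ciliary body secretes the aqueous humour. These tissues are not part of the retina, whereas Cryab and Aqp1 are also known in cells of the retina itself. The name lens crystallins, as used below, does not mean that retinal cells lack them.

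Each library held between 12673773 (WT 2) and 17574628 (WT 3) fragments, counting 4 units of the deposited estimated counts as 1 fragment. The 41 genes together took 0.0174% to 0.0331% of them. All 20 markers of retinal neurons had a mean of at least 1 FPKM (fragments scaled to transcript length and library depth), so the libraries carry the labelled tissue. Levels of Xist and of Y-linked genes assign Myrf-kd 3 and WT 3 to females and the remaining 4 libraries to males. The targeted gene Myrf measured 0.279, 0.382 and 0.351 FPKM in Myrf-kd 1, 2 and 3, against 0.359, 0.397 and 0.463 FPKM in WT 1, 2 and 3, so the groups overlapped (log2 fold change −0.29 ± 0.19 SE, adjusted p = 0.732, edgeR quasi-likelihood), and its level does not check the labels. Myrf-kd 3 stood apart from the other libraries in its lens genes, and results that rest on it are given with and without it.

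The gamma-crystallins are near copies of each other, which limits how far their reads can be told apart, and the start of their coding sequences is shown for that reason. The lines give the first 60 coding bases, 5′ to 3′ on the gene's strand, from the GENCODE M21 transcripts of GRCm38, with capitals at the positions where the 6 genes are not all the same. All 6 genes lie on chromosome 1.
Cryga: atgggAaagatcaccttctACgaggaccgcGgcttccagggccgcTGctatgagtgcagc
Crygb: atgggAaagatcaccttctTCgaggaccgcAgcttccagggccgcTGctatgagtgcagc
Crygc: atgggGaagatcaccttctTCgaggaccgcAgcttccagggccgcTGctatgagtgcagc
Crygd: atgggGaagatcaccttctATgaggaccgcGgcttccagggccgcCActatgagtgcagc
Cryge: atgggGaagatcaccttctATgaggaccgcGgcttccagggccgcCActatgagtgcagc
Crygf: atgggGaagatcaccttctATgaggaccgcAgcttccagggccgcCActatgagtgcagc
The Crygd and Cryge lines are the same over these bases. Over their whole coding sequences Cryge and Crygf were identical at 98.1% of bases, Crygd and Cryge at 91.6% and Crygd and Crygf at 90.7%, and the other pairs at 78.8% to 84.0%. Of the 100-base windows of a coding sequence, 28.4% of Crygb and of Crygc, 27.5% of Cryge, 14.8% of Crygf, 12.7% of Crygd and 0% of Cryga matched another of the 6 genes exactly. The split of fragments among these genes is therefore uncertain, and their sum is less so.

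Since the lens crystallins varied together across libraries, their promoters were searched for TGCTGAC, a core of the element bound by Maf factors, which are known to drive crystallin genes in the lens. RefSeq promoters of GRCm38.p6, 250 bases before to 50 bases after each start, matched 31 of the 41 genes. On either strand, TGCTGAC was found in 5 of 12 lens crystallin promoters, against 4.67% of all 32851 promoters. It was in 0 of 3 promoters of the other crystallins, 0 of 9 of the lens fibre genes, 0 of 7 of the surface epithelium genes and 0 of 2 of the ciliary genes, with some genes having more than 1 start. The lines show the match in capitals with 15 bases on each side, read 5′ to 3′ on the gene's strand.
Cryaa, chr17:31677808-31677844, plus strand: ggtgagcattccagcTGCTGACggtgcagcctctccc
Cryba1, chr11:77725329-77725365, minus strand: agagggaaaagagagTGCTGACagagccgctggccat
Cryba4, chr5:112252679-112252715, minus strand: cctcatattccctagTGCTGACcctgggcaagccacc
Cryba4, chr5:112252632-112252668, minus strand: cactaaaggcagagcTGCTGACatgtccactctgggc
Crybb1, chr5:112255721-112255757, plus strand: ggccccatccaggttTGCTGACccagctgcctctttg
Cryga, chr1:65103557-65103593, minus strand: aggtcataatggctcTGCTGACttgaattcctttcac
The motif began 108 bases before the RefSeq start in Cryaa, 57 in Cryba1, 182 and 135 in Cryba4, 84 in Crybb1 and 215 in Cryga. By the gene coordinates given below, Cryaa begins at 31677807, so there its motif lies inside the gene. The TATA box TATAAA, searched in the same way, was in 2 of 12 lens crystallin promoters and in 13.6% of all promoters. These matches describe letters in a window and say nothing of binding.

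**Figure D1:**
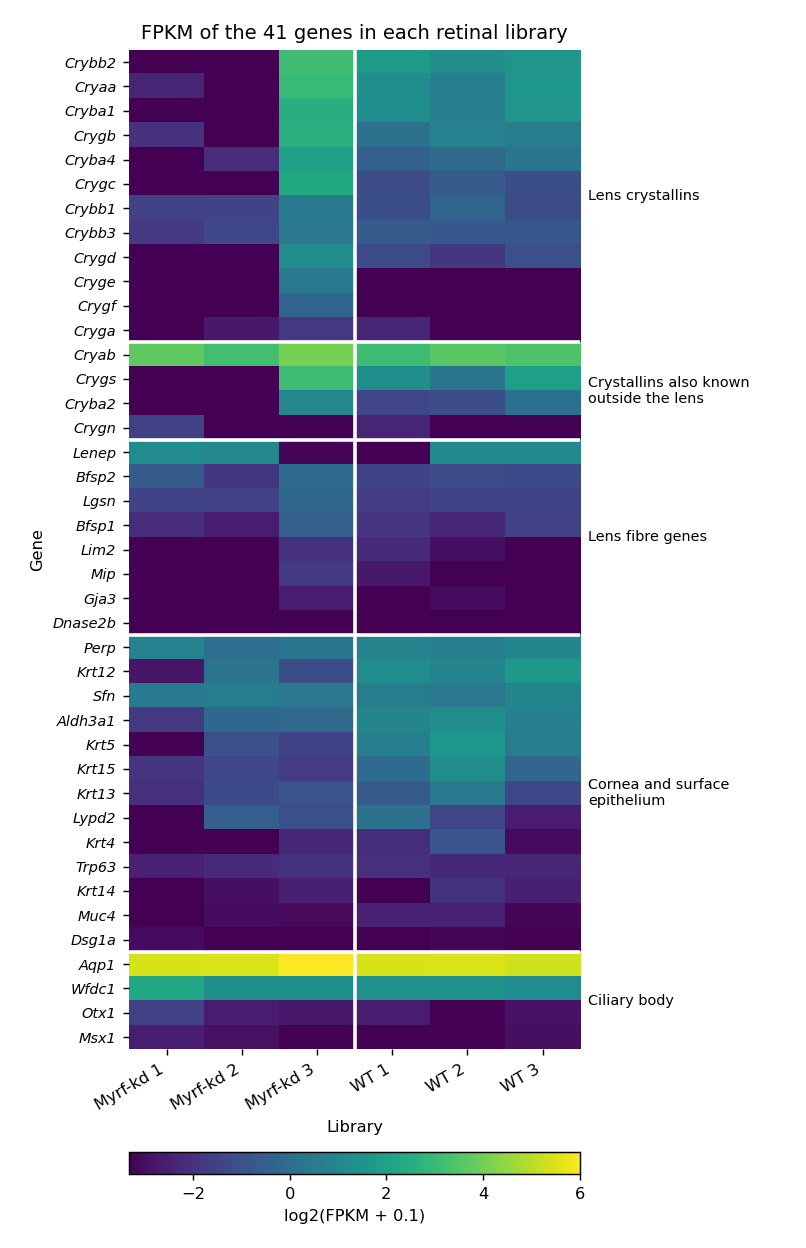
Level of each of the 41 genes (rows, grouped by tissue) in each library (columns, 3 Myrf-kd then 3 WT), as log2(FPKM + 0.1) on the colour scale. The lens crystallin rows are brightest in Myrf-kd 3 and dark in Myrf-kd 1 and Myrf-kd 2, while several surface epithelium rows, such as Krt5 and Krt12, are darker in all 3 Myrf-kd libraries.

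The comparison asks which of these genes differ between Myrf +/− and wild-type retina. None of the 41 genes passed the test over all genes described next, with 0 of 16 called by edgeR. The summed level of the corneal and surface epithelium genes averaged 4.99 ± 1.18 FPKM in Myrf-kd, against 12.3 ± 2.05 FPKM in WT (SD, n = 3 each), and the libraries of the 2 groups did not overlap. This rested mostly on 4 of the 13 genes, Krt5, Krt12, Krt15 and Aldh3a1, while 9 of the 13 overlapped between the groups. The lens genes did not separate the groups. Their summed level was lowest in Myrf-kd 1 and Myrf-kd 2, intermediate in the 3 WT libraries and highest in Myrf-kd 3. The ciliary genes overlapped between the groups. In bulk RNA, fewer cells of a type and less RNA per cell cannot be told apart. How much lens, cornea or ciliary body was carried over with the retina in dissection is not known, and its part in these levels was not tested.

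Of the 41 genes, 40 had signal in at least 1 library and 16 reached the mean of 1 FPKM needed to enter the test (edgeR's quasi-likelihood test over 13673 genes, Benjamini-Hochberg adjustment, threshold 0.05). Of those 16, 0 were called, against 0.0439% of all genes tested (6 genes, 4 of them higher and 2, or 0.0146%, lower). At an unadjusted p under 0.05, 3 of the 16 genes were counted, all lower in Myrf-kd, against 7.48% of all genes in either direction and 3.72% in that direction. The 3 genes are Krt5, Krt12 and Aldh3a1. Without Myrf-kd 3 that count was 9, beside 903 of all 13673 genes. The 9 were Krt5, Aldh3a1, Cryaa, Cryba1, Cryba4, Crybb2, Crygb, Crygc and Crygs, without Krt12. The filter on the mean still included Myrf-kd 3 there, and Crygb, Crygc and Cryba4 would have fallen below it otherwise. The count was 1 without WT 2 (555 of all genes), 2 without WT 1 (1188) or WT 3 (525) and 2 with a sex term (1007). Limma called 0 of the 16 and counted 3 at an unadjusted p under 0.05. Of all genes it counted 1026 on log2(FPKM + 1) and 1008 on log2(FPKM + 0.1). DESeq2 gave no p for 4 of the 16, Crybb2, Cryba1, Crygb and Crygc. Of the other 12 it called 0 and counted 3 at an unadjusted p under 0.05, beside 1077 of all genes. With genes of at least 0.1 FPKM admitted, 30 of the 41 entered, 0 were called (0.0235% of all genes then tested) and 4 had an unadjusted p under 0.05 (6.55% of all genes in either direction and 3.22% lower), all 4 lower and with Krt15 as the added one.

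**Figure D2:**
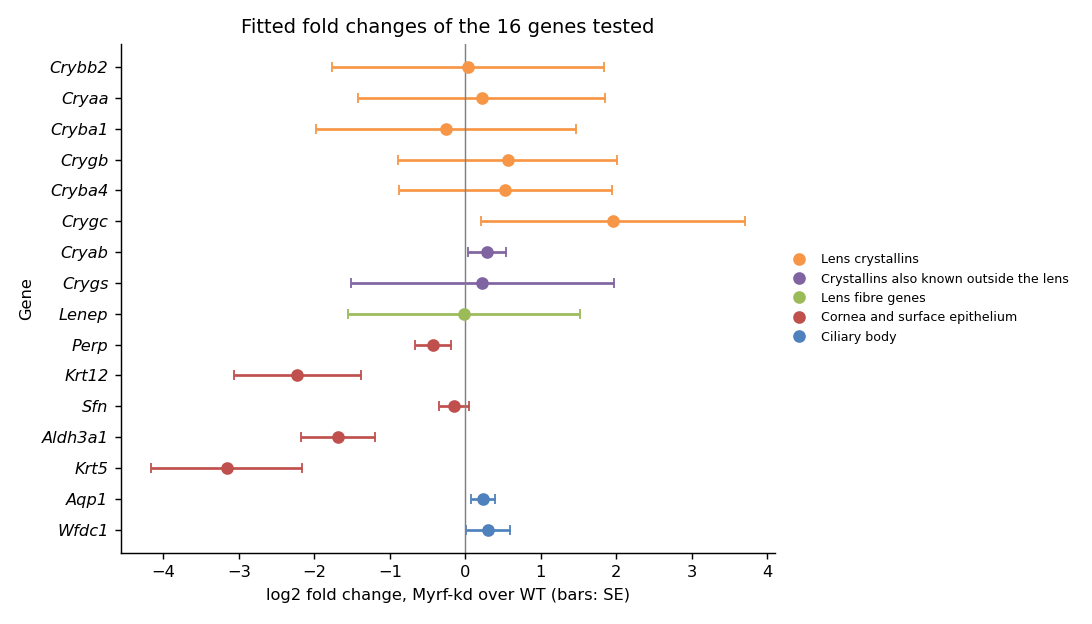
Fitted log2 fold change, Myrf-kd over WT, of the 16 genes that entered the test (points, coloured by tissue), with bars of 1 SE and a line at 0. The lens crystallins and Crygs have long bars, with Crygc at 1.96 and the others between −0.26 and 0.56, Krt5, Krt12 and Aldh3a1 lie between −3.16 and −1.69, and Aqp1, Wfdc1 and Cryab lie just above 0.

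The lens crystallins were nearly missing from Myrf-kd 1 and Myrf-kd 2 and most abundant in Myrf-kd 3. Their summed level was 0.697, 0.747 and 43.7 FPKM in Myrf-kd 1, 2 and 3, against 11.4, 9.77 and 12.7 FPKM in WT 1, 2 and 3. These sums rest on 20, 20 and 1210 fragments in Myrf-kd and on 351, 215 and 408 fragments in WT. The WT libraries lay close together, and the Myrf-kd libraries lay on both sides of them. All 12 lens crystallins were highest in Myrf-kd 3, as were 23.3% of all 21275 genes with a mean of at least 0.1 FPKM. Of the 12 genes, 8, 8 and 0 were listed at 0 in Myrf-kd 1, 2 and 3, and 2, 3 and 3 were listed at 0 in WT 1, 2 and 3. A count of 0 allows up to 3 fragments, and this limit covers counting error only.

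The alpha-crystallin Cryaa (ENSMUSG00000024041, chromosome 17, 31677807 to 31681733, plus strand, GRCm38), the chaperone of the lens, reached 0.0940, 0 and 7.72 FPKM in Myrf-kd 1, 2 and 3, against 2.25, 1.47 and 2.90 FPKM in WT 1, 2 and 3. Myrf-kd 3 was above every WT library and the other Myrf-kd libraries were below them. The fitted log2 fold change was 0.22 ± 1.64 SE (adjusted p = 0.979 by edgeR), so the SE exceeds the difference. Its reads numbered 4, 0 and 316 fragments in Myrf-kd and 87, 46 and 121 fragments in WT.

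Among the 5 beta-crystallins, Crybb2 (ENSMUSG00000042240, chromosome 5, 113058258 to 113070117, minus strand), a major soluble protein of the adult lens, was the most abundant. Its level was 0, 0 and 8.77 FPKM in Myrf-kd 1, 2 and 3, against 3.32, 2.36 and 2.82 FPKM in WT 1, 2 and 3. Cryba1, which encodes the beta-A1 and beta-A3 crystallins, was at 0, 0 and 5.69 FPKM in Myrf-kd and at 2.44, 1.48 and 2.80 FPKM in WT. Both genes thus had no fragment in 2 Myrf-kd libraries and their highest level in the third. Cryba4 was at 0, 0.125 and 3.72 FPKM in Myrf-kd and at 0.621, 0.839 and 1.15 FPKM in WT. Crybb1 was at 0.255, 0.273 and 1.295 FPKM in Myrf-kd and at 0.379, 0.726 and 0.354 FPKM in WT. Crybb3 was at 0.194, 0.294 and 1.21 FPKM in Myrf-kd and at 0.557, 0.501 and 0.487 FPKM in WT. Crybb1 and Crybb3 kept some signal in every library, and they too were lowest in Myrf-kd 1 and Myrf-kd 2. By edgeR the log2 fold changes were 0.03 ± 1.80 SE for Crybb2 (adjusted p = 0.997), −0.26 ± 1.72 SE for Cryba1 (adjusted p = 0.975) and 0.53 ± 1.41 SE for Cryba4 (adjusted p = 0.933). Cryba1 overlaps Nufip2 on the other strand, which was at 10.5, 10.2 and 12.9 FPKM in Myrf-kd and at 10.3, 10.7 and 9.98 FPKM in WT. Since Cryba1 was listed at 0 in 2 of these libraries, reads of Nufip2 were not assigned to it there.

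Among the gamma-crystallins, Crygb was at 0.154, 0 and 6.01 FPKM in Myrf-kd 1, 2 and 3, against 1.01, 1.67 and 1.45 FPKM in WT 1, 2 and 3. Crygc was at 0, 0 and 4.93 FPKM in Myrf-kd and at 0.333, 0.540 and 0.370 FPKM in WT. Crygd was at 0, 0 and 2.18 FPKM in Myrf-kd and at 0.337, 0.187 and 0.380 FPKM in WT. These genes too were highest in Myrf-kd 3. Cryge and Crygf, the pair with the most similar coding sequences, were at 1.28 and 0.709 FPKM in Myrf-kd 3, from 18 and 9 fragments, and at 0 in the other 5 libraries. Cryga, at 0 to 0.197 FPKM in Myrf-kd and 0 to 0.102 FPKM in WT, had at most 3 fragments in any library. The log2 fold changes by edgeR were 0.56 ± 1.45 SE for Crygb (adjusted p = 0.931) and 1.96 ± 1.75 SE for Crygc (adjusted p = 0.782).

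The share of gamma-crystallins in the lens crystallin signal was computed for each library, with intervals that cover counting error only and not the variation between libraries. Of the lens crystallin fragments, gamma-crystallins took 10% (95% exact binomial interval 1.23% to 31.7%), 5% (0.127% to 24.9%) and 18.7% (16.5% to 21.0%) in Myrf-kd 1, 2 and 3. In WT 1, 2 and 3 they took 7.12% (4.66% to 10.3%), 11.6% (7.67% to 16.7%) and 7.84% (5.43% to 10.9%). The share was highest in Myrf-kd 3, and in Myrf-kd 1 and Myrf-kd 2 it rests on 20 fragments each. Set against the WT mean, Myrf-kd 3 held 3.49 times the FPKM of alpha-crystallin, 2.98 times that of the beta-crystallins and 7.20 times that of the gamma-crystallins. Within the gamma group the same ratio was 11.9 for Crygc and 4.36 for Crygb.

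**Figure D3:**
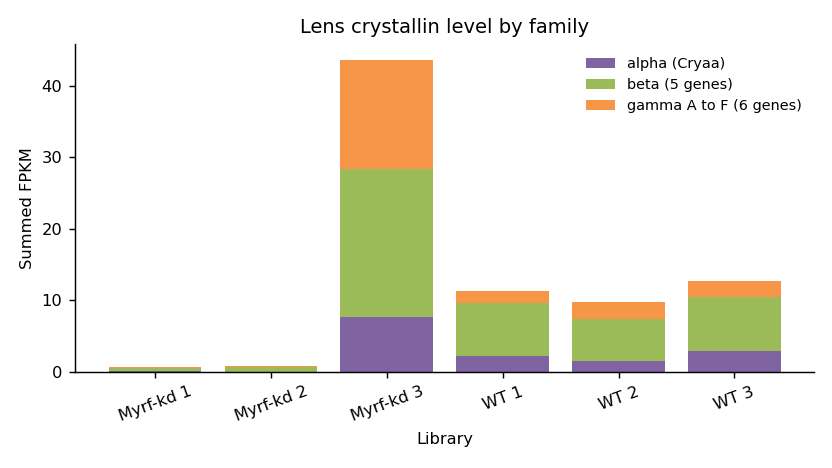
Summed FPKM of the 12 lens crystallins in each library, stacked by family (alpha, the 5 beta and the 6 gamma genes). Myrf-kd 3 reaches 43.7 FPKM, Myrf-kd 1 and Myrf-kd 2 stay below 1 FPKM, and the WT libraries lie between 9.77 and 12.7 FPKM.

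The lens crystallin calls depend on Myrf-kd 3. Without that library, 2 of the 16 genes passed the test, Crybb2 (adjusted p = 0.0104 by edgeR) and Cryba1 (adjusted p = 0.0448), both lower in Myrf-kd, against 0.117% of all genes in that fit. Their fitted fold changes set counts of 0 in both remaining Myrf-kd libraries against WT and depend on the prior count, so no size is read from them. Within sex, the female library Myrf-kd 3 had a summed lens level of 46.4 FPKM and the female library WT 3 had 15.6 FPKM. Among males, Myrf-kd 1 and Myrf-kd 2 had 3.86 and 3.20 FPKM and WT 1 and WT 2 had 12.2 and 12.7 FPKM. With 1 female library in each group, sex and the single library Myrf-kd 3 cannot be told apart.

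The lens genes outside the crystallins were mostly low. The fibre cell genes Bfsp1 and Bfsp2 encode the beaded filament proteins filensin and phakinin, and Lgsn encodes lengsin, a lens relative of glutamine synthetase. Bfsp2 was at 0.532, 0.181 and 0.854 FPKM in Myrf-kd 1, 2 and 3, against 0.264, 0.335 and 0.328 FPKM in WT 1, 2 and 3. Lgsn was at 0.277, 0.257 and 0.767 FPKM in Myrf-kd and at 0.220, 0.276 and 0.266 FPKM in WT. Bfsp1 was at 0.126, 0.0653 and 0.608 FPKM in Myrf-kd and at 0.162, 0.106 and 0.260 FPKM in WT. These 3 genes were highest in Myrf-kd 3, as the crystallins were, but in Myrf-kd 1 and Myrf-kd 2 they kept signal, at 0.0653 to 0.532 FPKM. The membrane proteins of fibre cells were near 0: the water channel gene Mip reached 0.200 FPKM, Lim2 0.149 FPKM and the connexin gene Gja3 0.0645 FPKM in Myrf-kd 3, and in the WT libraries they reached at most 0.0515, 0.114 and 0.0210 FPKM. Dnase2b, the nuclease that clears DNA from fibre cells, was listed at 0 in all 6 libraries. In all, 6 of the 8 genes were highest in Myrf-kd 3. Of the 4 with a mean of at least 0.1 FPKM it was 3, beside 23.3% of all such genes.

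Lenep, named for its expression in lens epithelium, ran against the other lens genes. It was at 2.23, 1.95 and 0.0134 FPKM in Myrf-kd 1, 2 and 3, against 0.000401, 2.13 and 2.03 FPKM in WT 1, 2 and 3. It was thus near 0 in 1 library of each group and close to 2 FPKM in the others. Lenep lies inside Flad1 on the same strand, and Flad1 was at 7.79, 8.26 and 7.20 FPKM in Myrf-kd and at 9.29, 7.40 and 8.29 FPKM in WT, so reads can be shared between them and the Lenep level is uncertain. Its log2 fold change was −0.02 ± 1.54 SE (adjusted p = 0.997 by edgeR). All 20 lens genes together summed to 3.86, 3.20 and 46.4 FPKM in Myrf-kd 1, 2 and 3, against 12.2, 12.7 and 15.6 FPKM in WT 1, 2 and 3. Without Lenep it was 1.63, 1.25 and 46.3 FPKM in Myrf-kd, against 12.2, 10.5 and 13.6 FPKM in WT.

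Of the 4 crystallins set apart as known outside the lens, Crygs and Cryba2 followed the lens crystallins and Cryab and Crygn did not. Crygs, the gamma-S crystallin, was at 0, 0 and 8.53 FPKM in Myrf-kd 1, 2 and 3, against 2.39, 1.10 and 3.75 FPKM in WT 1, 2 and 3. Cryba2 was at 0, 0 and 1.90 FPKM in Myrf-kd and at 0.296, 0.370 and 0.971 FPKM in WT. Both were at 0 in the same libraries as Crybb2 and Cryba1 and highest in Myrf-kd 3. Cryab, a small heat shock protein that glia and muscle also make, was at 12.7, 9.04 and 16.9 FPKM in Myrf-kd, against 8.50, 12.2 and 10.5 FPKM in WT. It was at least 8.50 FPKM in every library, and the groups overlapped. Crygn had at most 4 fragments in any library, at 0 to 0.251 FPKM in Myrf-kd and 0 to 0.0946 FPKM in WT. By edgeR the log2 fold change was 0.28 ± 0.25 SE for Cryab (adjusted p = 0.777) and 0.22 ± 1.74 SE for Crygs (adjusted p = 0.980).

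**Figure D4:**
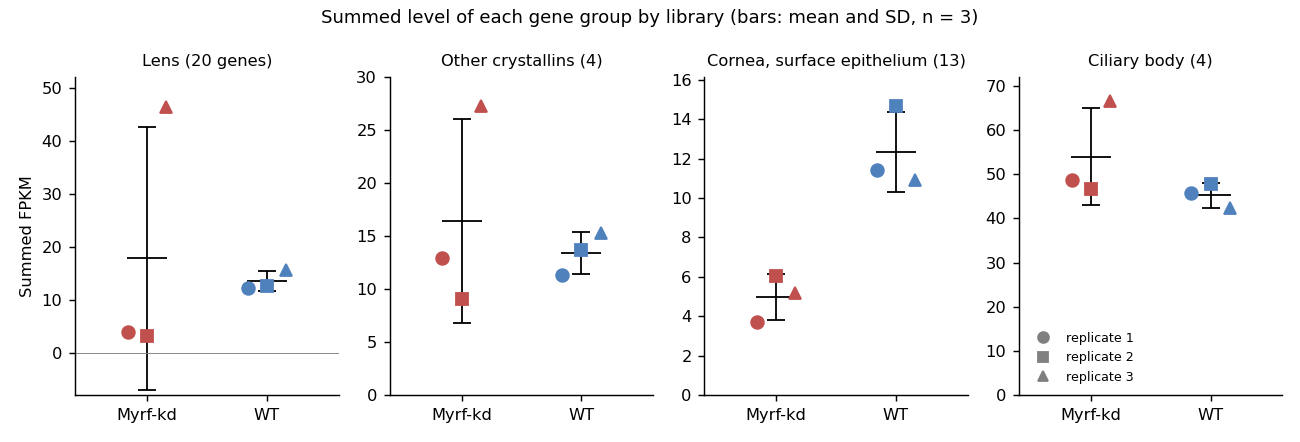
Summed FPKM of the 20 lens genes, the 4 other crystallins, the 13 surface epithelium genes and the 4 ciliary body genes in each library (points, shaped by replicate number, Myrf-kd left and WT right), with the mean and SD of 3 libraries. The groups are apart in the surface epithelium panel, at 3.72 to 6.04 FPKM in Myrf-kd and 10.9 to 14.7 FPKM in WT, and the lens panel has Myrf-kd 3 far above the rest.

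Among the summed levels of these gene groups, that of the surface epithelium had no overlap between Myrf-kd and WT. It was 3.72, 6.04 and 5.20 FPKM in Myrf-kd 1, 2 and 3, against 11.4, 14.7 and 10.9 FPKM in WT 1, 2 and 3. The Myrf-kd mean was 40.5% of the WT mean. Of the 13 genes, 4 were lower in every Myrf-kd library than in every WT library, namely Krt5, Krt12, Krt15 and Aldh3a1, and 0 were higher in this way. Of all genes with a mean of at least 0.1 FPKM, 5.78% were apart in the lower direction (6.57% of the genes with a mean of at least 1 FPKM). Together these 4 genes, singled out by their values, summed to 0.416, 2.56 and 1.69 FPKM in Myrf-kd 1, 2 and 3, against 6.38, 9.58 and 6.75 FPKM in WT 1, 2 and 3. The other 9 summed to 3.31, 3.49 and 3.51 FPKM in Myrf-kd, against 5.05, 5.10 and 4.15 FPKM in WT, and this sum did not overlap either. Since no Myrf-kd sum over the 13 genes reached a WT sum, the same order within each sex was fixed and adds no support. The female pair was at 5.20 FPKM in Myrf-kd against 10.9 FPKM in WT. The males were at 3.72 and 6.04 FPKM in Myrf-kd against 11.4 and 14.7 FPKM in WT.

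Krt5 (ENSMUSG00000061527, chromosome 15, 101707070 to 101712898, minus strand), the keratin of basal epithelial cells, was at 0, 0.397 and 0.281 FPKM in Myrf-kd 1, 2 and 3, against 1.53, 3.08 and 1.40 FPKM in WT 1, 2 and 3. The highest Myrf-kd value was well below the lowest WT value. From 0, 16 and 12 fragments in Myrf-kd and 63, 100 and 62 fragments in WT, the fitted ratio of Myrf-kd to WT was 0.112 (log2 fold change −3.16 ± 1.00 SE). Its unadjusted p was 0.0165 and its adjusted p 0.666 by edgeR, so the difference did not pass the correction over all genes.

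Krt12 (ENSMUSG00000020912, chromosome 11, 99415666 to 99422259, minus strand), the keratin that defines corneal epithelium, was at 0.0498, 1.10 and 0.371 FPKM in Myrf-kd 1, 2 and 3, against 2.19, 1.80 and 3.04 FPKM in WT 1, 2 and 3. The groups did not overlap, and Myrf-kd 1, with 2 fragments, was the lowest. The ratio was 0.214 (log2 fold change −2.23 ± 0.84 SE, unadjusted p = 0.0338, adjusted p = 0.666 by edgeR). Aldh3a1 (ENSMUSG00000019102, chromosome 11, 61207537 to 61218421, plus strand), an aldehyde dehydrogenase that makes up much of the soluble protein of the mouse cornea, was at 0.201, 0.768 and 0.825 FPKM in Myrf-kd, against 1.80, 2.37 and 1.57 FPKM in WT. It too did not overlap, at a ratio of 0.311 (log2 fold change −1.69 ± 0.49 SE, unadjusted p = 0.0113, adjusted p = 0.666 by edgeR). Krt15, a basal and limbal keratin, was at 0.165, 0.294 and 0.215 FPKM in Myrf-kd, against 0.852, 2.33 and 0.737 FPKM in WT. It was below the filter on the mean, and with genes of at least 0.1 FPKM admitted its ratio was 0.171 (log2 fold change −2.55 ± 0.53 SE, unadjusted p = 0.00189, adjusted p = 0.759 by edgeR).

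The other surface epithelium genes overlapped between the groups. Perp, a desmosome-associated p53 target, was at 1.68, 0.966 and 1.16 FPKM in Myrf-kd 1, 2 and 3, against 1.72, 1.52 and 1.82 FPKM in WT 1, 2 and 3 (log2 fold change −0.43 ± 0.24 SE, adjusted p = 0.703 by edgeR). Sfn, the 14-3-3 protein sigma, was at 1.39, 1.43 and 1.19 FPKM in Myrf-kd and at 1.42, 1.22 and 1.75 FPKM in WT (log2 fold change −0.15 ± 0.20 SE, adjusted p = 0.853 by edgeR). Both genes had signal in every library. The conjunctival keratin Krt13 was at 0.136, 0.326 and 0.425 FPKM in Myrf-kd and at 0.521, 1.28 and 0.309 FPKM in WT, and its partner Krt4 was at 0, 0 and 0.108 FPKM in Myrf-kd and at 0.130, 0.444 and 0.0220 FPKM in WT. Lypd2 was at 0, 0.593 and 0.381 FPKM in Myrf-kd and at 1.04, 0.282 and 0.0691 FPKM in WT. For each of these 3 genes the range within WT was wider than the difference between the group means. Trp63, the transcription factor of stratified epithelia, was at 0.0833, 0.119 and 0.154 FPKM in Myrf-kd and at 0.136, 0.106 and 0.0985 FPKM in WT, and so it did not share the order of Krt5. Krt14, the usual partner of Krt5, had at most 4 fragments in any library. The mucin gene Muc4 stayed at or below 0.0831 FPKM and the desmoglein gene Dsg1a at or below 0.0199 FPKM. By library, 7 of the 13 genes were highest in WT 2 and 8 of the 13 were lowest in Myrf-kd 1, some on few fragments. Of the 10 with a mean of at least 0.1 FPKM, 5 were highest in WT 2, beside 13.5% of all such genes. Of the same 10, 7 were lowest in Myrf-kd 1, beside 2713 of all 21275 such genes.

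Krt5, Krt12 and Aldh3a1 had means of 0.226, 0.507 and 0.598 FPKM in Myrf-kd and of 2.01, 2.34 and 1.91 FPKM in WT, so they reached the filter of 1 FPKM only through WT. Crygc and Cryba4 had means of 1.64 and 1.28 FPKM in Myrf-kd and of 0.414 and 0.869 FPKM in WT. They reached the filter only through the single library Myrf-kd 3, at 4.93 and 3.72 FPKM. Counts and medians over the genes that entered the test are therefore not read as a direction of either group.

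The ciliary body genes did not share the order of either group. Aqp1 (ENSMUSG00000004655, chromosome 6, 55336432 to 55348555, plus strand), a water channel of ciliary epithelium that retinal cells also express, was the most abundant of the 41 genes, at 43.8, 44.1 and 64.3 FPKM in Myrf-kd 1, 2 and 3, against 43.0, 45.02 and 40.0 FPKM in WT 1, 2 and 3. Its values lay close together apart from Myrf-kd 3, which was the highest for this gene too. Wfdc1, a secreted protein with a whey acidic protein domain, was at 4.60, 2.39 and 2.44 FPKM in Myrf-kd, against 2.63, 2.70 and 2.24 FPKM in WT, with Myrf-kd 1 as the highest. The log2 fold changes by edgeR were 0.23 ± 0.16 SE for Aqp1 (adjusted p = 0.733) and 0.30 ± 0.29 SE for Wfdc1 (adjusted p = 0.793). The homeobox genes Otx1 and Msx1, which mark the ciliary margin, were at most 0.260 and 0.0649 FPKM, both in Myrf-kd 1, and at most 0.0650 and 0.0303 FPKM in WT. The 3 genes Wfdc1, Otx1 and Msx1 were thus highest in Myrf-kd 1, where a list of 7 melanin genes was also highest, at a summed 18.6, 7.10 and 6.97 FPKM in Myrf-kd, against 10.7, 8.61 and 13.8 FPKM in WT. Of those melanin genes 5 of 7 were highest in Myrf-kd 1, as were 13.1% of all genes with a mean of at least 0.1 FPKM. Genes of the retinal pigment epithelium summed to their lowest level in Myrf-kd 1, at 143 FPKM. The Msx1 level in Myrf-kd 1 rests on 4 fragments. The part of the melanin genes in the ciliary values was not tested.

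Marker lists of other tissues were read beside these groups. Fibroblast genes, which are made in sclera and corneal stroma, summed to 5.10, 4.32 and 3.85 FPKM in Myrf-kd 1, 2 and 3, against 5.84, 5.92 and 6.34 FPKM in WT 1, 2 and 3, so they were lower in every Myrf-kd library, as the surface epithelium was. Of the 6 fibroblast genes, 3 were apart in that direction (5.78% of all genes with a mean of at least 0.1 FPKM), 2 entered the test and 0 were called. Genes of the retinal pigment epithelium summed to 143, 144 and 164 FPKM in Myrf-kd, against 162, 169 and 201 FPKM in WT, and the summed retinal neuron markers did not exceed 7915 FPKM in Myrf-kd and were at least 8036 FPKM in WT. Markers of Mueller glia were at 884 to 962 FPKM in Myrf-kd and at 882 to 960 FPKM in WT. The lower surface epithelium level in Myrf-kd thus came with a lower fibroblast level, an overlapping anterior mesenchyme level and close Mueller glia levels. The part of the other tissues in the surface epithelium level was not tested. Blood genes were at 53.6, 59.4 and 60.4 FPKM in Myrf-kd and at 72.1, 41.2 and 103 FPKM in WT, iris muscle genes at 3.36, 3.43 and 3.94 FPKM and at 4.57, 3.27 and 4.78 FPKM, and skeletal muscle genes at 4.30, 3.69 and 3.62 FPKM and at 3.75, 2.59 and 4.74 FPKM, and each of these overlapped.

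**Figure D5:**
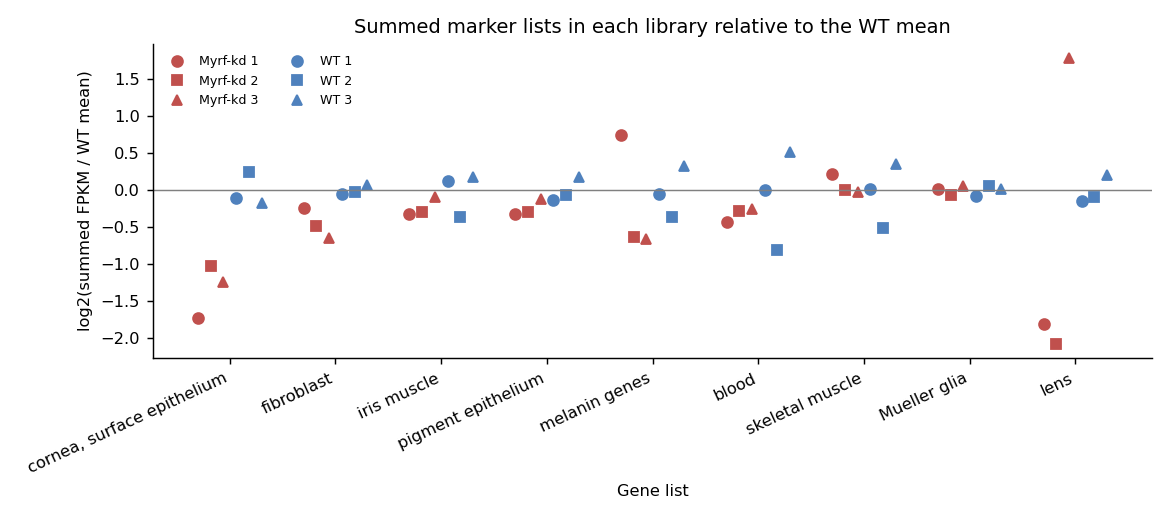
Summed FPKM of each marker list in each library as log2 of its ratio to the WT mean (vertical axis), for 3 Myrf-kd libraries (red) and 3 WT libraries (blue). Surface epithelium and fibroblast genes lie lower in all Myrf-kd libraries, Mueller glia genes lie near 0 in every library, and the lens genes span the widest range, with Myrf-kd 3 highest and Myrf-kd 1 and Myrf-kd 2 lowest.

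Further lists of lens and epithelial genes, less specific to these tissues, were read as well. Of 13 further lens genes 6 entered the test, 3 with a higher and 3 with a lower estimate, and 0 were called. The most abundant were Tdrd7, a lens RNA granule gene, Prox1, a transcription factor also made by retinal neurons, and Hsf4, a heat shock factor of the lens. Their levels were 102.9, 101.5 and 81.3 FPKM for Tdrd7 in Myrf-kd 1, 2 and 3, against 108.3, 104.3 and 99.5 FPKM in WT, 22.9 to 23.8 FPKM for Prox1 in Myrf-kd, against 21.7 to 24.7 FPKM in WT, and 2.18 to 2.76 FPKM for Hsf4 in Myrf-kd, against 2.69 to 3.05 FPKM in WT. Neither Tdrd7, Prox1 nor Hsf4 was highest in Myrf-kd 3. Maf, a crystallin activator, is named for the factor family above and not for its abundance. It was at 1.21, 1.27 and 1.76 FPKM in Myrf-kd and at 1.304, 1.14 and 1.17 FPKM in WT (adjusted p = 0.750 by edgeR). Of the 6 further lens genes tested, Maf was the only 1 highest in Myrf-kd 3, as were 26.5% of all genes tested. Its part in the crystallin levels was not tested. Of 27 further epithelial genes 1, the simple-epithelium keratin gene Krt18, entered the test, at 28.8, 24.4 and 34.5 FPKM in Myrf-kd, against 28.6, 29.3 and 28.8 FPKM in WT, and it was not called (adjusted p = 0.999 by edgeR). Of the same 27 genes 2, named after their values were seen, were lower in every Myrf-kd library than in every WT library, beside 5.78% of all genes with a mean of at least 0.1 FPKM. That share leaves out lower genes such as Slurp1, at a mean of 0.0970 FPKM, and the count is not read as a result about these genes. Elf3, an epithelial transcription factor, was at 0.0454, 0.211 and 0.140 FPKM in Myrf-kd, against 0.303, 0.462 and 0.287 FPKM in WT. Slurp1, a secreted protein of corneal epithelium, was at 0.0164, 0 and 0.0955 FPKM in Myrf-kd, against 0.146, 0.149 and 0.175 FPKM in WT. By contrast 1 of the 27 was higher in every Myrf-kd library by a narrow margin, the adhesion gene Cdh1, at 0.320, 0.257 and 0.250 FPKM in Myrf-kd, against 0.248, 0.194 and 0.151 FPKM in WT.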

How the data were processed

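Groups and replicate numbers come from the sample titles. The authors deposited 1 table with FPKM and a count per gene and library. FPKM is named per the file headers, with 0.0001 for no signal, read here as 0. The counts the authors deposited were read as estimated counts, already whole, with about 4 units per fragment because 4 was the commonest low value. The submitters' processing notes list the build GRCm38 and the tools HISAT2 2.0, StringTie 1.3.0 and Bowtie 0.12.2 without saying what each did. The strand setting is not given in the sources, so overlapping genes may share reads.

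The 41 genes, the 16 marker lists and the tests were chosen with earlier results of these data known. All 41 genes are named. Values per library are given for genes with a mean of at least 1 FPKM and for some above 0.1 FPKM. Genes with a mean of at least 1 FPKM (13673, with Myrf added) were tested with edgeR 4.0.16 in R 4.3.3 (TMM factors, quasi-likelihood test, genotype as the only term), with two-sided p adjusted by Benjamini-Hochberg. The SE is the log2 fold change over the root of F. The biological coefficient of variation was 20.3%. The fit was tested on simulated counts. Alternatives used DESeq2 1.42.0, limma 3.58.1, other filters, a replicate block, a sex term and the omission of each library. Every pair of libraries within a group differed beyond sampling noise (chi-square per degree of freedom at least 13.9). CPM is counts scaled to the TMM-scaled library, and the text compares levels between genes in FPKM. Sequences are from GENCODE M21 and RefSeq, and 39 of 41 genes have the same coordinates in GENCODE and the table.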

Additional observations from a re-analysis of the deposited data

Results flagged for a closer look

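Several lens results pointed in opposite directions in the 2 sexes. On log2(CPM + 1), the sum over 20 lens genes was higher in Myrf-kd than in WT by 1.33 between the female libraries and lower by a mean difference of −1.59 among the males, a gap of 2.93 between the sexes. The gap was 4.42 for Crybb2, 3.58 for Cryaa, 3.08 for Cryba1, 2.51 for Crygc, 2.44 for Crygs, 2.29 for Crygb and 1.82 for Cryba4. In each of these 8 of 20 results the female Myrf-kd library was above the female WT library and both male Myrf-kd libraries were below both male WT libraries. The difference between the sexes was not tested, and since each group holds 1 female library it cannot be told apart from the single library Myrf-kd 3. Lenep ran the other way, at −2.37 between females and a mean of 1.17 among males, a gap of −3.54, but its male libraries overlapped. For the surface epithelium sum the difference was −0.98 between females and −1.41 among males. The direction was the same in both, as the lack of overlap between the groups had fixed.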

How the results depend on the processing

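The count of all genes past the threshold, 6 in edgeR, was 2 with a mean of at least 5 FPKM, 53 with DESeq2, 0 with a replicate block (703 at an unadjusted p under 0.05) and 9 to 16 when 1 library was left out, and 5 with the lower filters or a sex term. The count among the 41 genes was 0 in all of these except without Myrf-kd 3, where it was 2 (0 to 2 when 1 library was left out). Same-numbered libraries deviated together with r = −0.042, 0.082 and 0.14, so the numbers were not taken to pair the samples. The summed surface epithelium level (log2 ratio −1.26) ranged from −1.38 to −1.09 and the lens level (−0.62) from −1.70 to −0.01 when 1 library was left out, while the level of the other crystallins (0.17) ranged from −0.19 to 0.48 and turned lower without Myrf-kd 3. The lens sum was −1.18 without Lenep and −0.71 with Crygs and Cryba2, both chosen after seeing the data. The lens fold changes turned with the setting. With limma on log2(FPKM + 1), limma on log2(FPKM + 0.1), a replicate block and a sex term, they were −0.57, −2.06, −3.04 and −2.92 for Cryaa, −0.83, −2.70, −4.33 and −4.27 for Crybb2, −0.61, −2.35, −3 and −3 for Crygs, −0.09, −1.10, −1.41 and −1.31 for Cryba4 and −0.23, −1.43, −1.56 and −1.57 for Crygb. For Crygc they were −0.46, −0.94 and −0.87 with the last 3 of these, and for Lenep 0.01 and 0.06 with limma. When 1 library was left out, the range was −5.50 to 0.80 for Cryaa, −11.69 to 0.62 for Crybb2, −10.26 to 0.81 for Crygs, −3.74 to 1.11 for Cryba4, −3.99 to 1.14 for Crygb, −7.58 to 2.54 for Crygc, −11.02 to 0.33 for Cryba1, −0.61 to 0.56 for Lenep and −0.09 to 0.47 for Wfdc1. The lowest values set 2 libraries at or near 0 against WT and measure no fold. The fold changes of Krt5 (−3.82 to −1.26), Krt12 (−3.46 to −1.19), Aldh3a1 (−1.99 to −0.88) and Perp (−0.68 to −0.25) kept their direction under 15 alternatives each, and none of these 4 passed the threshold. Krt5, Krt12 and Aldh3a1 were singled out because their groups did not overlap. Leaving out a library could therefore not turn their direction, and that part adds no support. DESeq2 gave no p for Crybb2, Cryba1, Crygb and Crygc, so its count covers the other 12 of 16. The causes were not tested. Each lens gene rests on at most 125 fragments per library outside Myrf-kd 3, which limits its precision.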
